A study of Homo sapiens with 3 samples.

Results

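Gene levels were read in khES3 cells, a line of human embryonic stem cells established in culture, on the 1 array of undifferentiated cells kept for 5 hours in complete medium, 1 of 3 arrays of the study. The array holds 1 culture of 1 cell line. The other arrays came from undifferentiated khES3 cells kept equally long without leucine or without lysine, and are not compared here. The cells were grown close to confluence in human ES medium before the medium was changed, and whether they were grown on feeder cells is not given in the sources used here. RNA was copied from the poly-A end, labelled with biotin and hybridised to an Affymetrix array.

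Levels and ranks were taken over every probe set that is no control and whose platform annotation names exactly 1 gene. Of 54675 probe sets 62 were controls, and of the other 54613 probe sets 41091 named 1 gene, 1801 named several and 11721 named none. The 41091 probe sets covered 19777 genes, of which 9254 had 1 probe set and 10523 had at least 2. The level of a gene is the MAS5 signal of its brightest probe set, in arbitrary linear units, and its percentile is the share of the 19777 genes at or below that level. With 1 array there is no error between cultures or arrays and no test, so what follows describes this array. Signal also depends on how well each probe set binds its transcript, so the order of 2 genes is an order of signals and not of molecules per cell. Probe sets with IDs ending in _s_at or _x_at can match several transcripts, and their values may hold signal from near-identical genes.

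Embryonic stem cells renew themselves and can still form all tissues of the embryo. This state is held by a network of transcription factors around POU5F1, SOX2 and NANOG, by RNA-binding proteins such as LIN28A, and in human cells by FGF and activin or NODAL signals. Human embryonic stem cells resemble the epiblast after implantation, a state called primed, more than the earlier naive state.

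The signals of all probe sets ran from 0.245 to 143736 with a median of 82.8, and gene levels had a median of 201, a 10th percentile of 9.59 and a 90th percentile of 3332. To judge which genes stood clear of background, 108 genes restricted to tissues that the culture should lack, such as insulin or haemoglobin genes, served as a reference. Of these, 102 were measured, with a median level of 32.0 and quartiles of 11.3 and 86.4. Their 95th percentile, 307, is called the reference level. It lay at the 56.1 percentile of all genes. Above it stood 8677 of 19777 genes (43.9%), and 4155 genes (21.0%) had every probe set above it. A level under 307 does not show that a transcript is missing, since probe sets of abundant transcripts can be dim, and a level above it can come from cross-hybridisation. The reference genes above it were SCGB3A2, a lung secretoglobin gene (7701), GUCA1A, a retinal gene (1031), GH1, the pituitary growth hormone gene (819.9), PF4, a platelet chemokine gene (377), SEMG1, a semen protein gene (362), and CEL, a pancreatic lipase gene (308). INS, the insulin gene, read 4.55 and HBB, the beta-globin gene, read 119, both named after their values were seen.

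**Figure D1:**
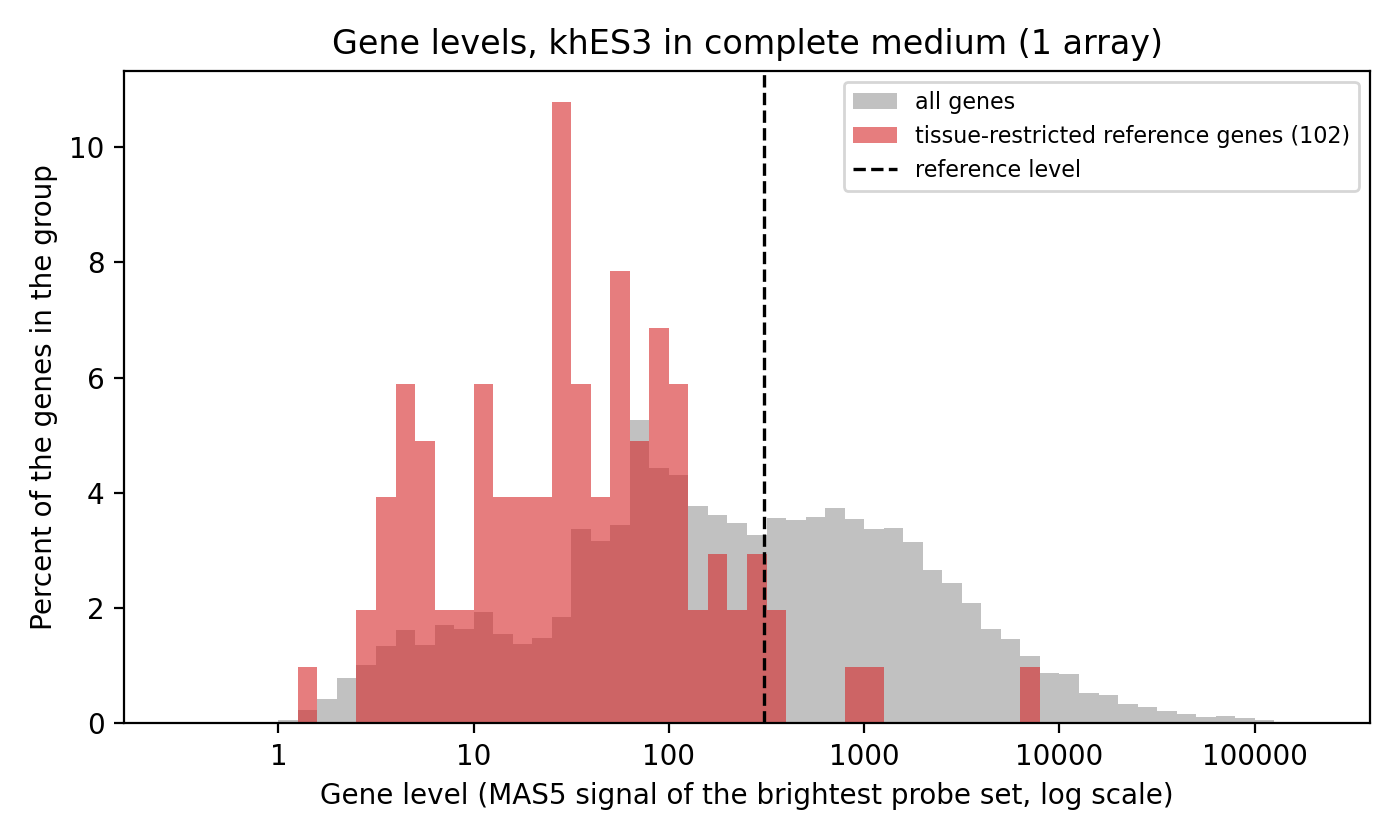
Histogram of gene levels (MAS5 signal of the brightest probe set, log scale) as a percent of all genes (grey) and of the 102 tissue-restricted reference genes (red), with the reference level of 307 as a dashed line. Most reference genes lie under 100 (upper quartile 86.4), while the levels of all genes spread up to 143736.

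Of the 4 genes that mark these cells, 3 were measured, and all 3 stood in the highest 2% of genes. SOX2, a partner of POU5F1 on DNA, had a level of 18755 (percentile 98.5, rank 300), and its 4 probe sets read 18755, 2698, 319 and 15.6. NANOG, the homeodomain factor that holds cells undifferentiated, had a level of 15765 (percentile 98.1, rank 373), with probe sets at 15765 and 2385. LIN28A, the RNA-binding protein that blocks the maturation of let-7 microRNAs, read 36158 on its single probe set (percentile 99.4, rank 128). One SOX2 probe set thus lay below the reference level while the other 3 lay above it, and both NANOG probe sets lay above it. POU5F1 had no probe set of its own: the probe set that holds it names 4 genes and is left out by the rule. The probe sets that name only a near-identical copy of POU5F1 read 49951 for POU5F1B, 31944 for POU5F1P4 and 24062 for POU5F1P3. These copies, named after their values were seen, share most of their sequence with POU5F1, so whether the signal comes from them or from POU5F1 is uncertain.

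Transcription factors of the pluripotency network were nearly all above the reference level: 20 of 21 measured of 23 listed, with a median percentile of 86.4 against 50 for all genes. Of all genes 43.9% were above that level. After SOX2 and NANOG came PRDM14, a repressor needed for human embryonic stem cell identity, at 10504. MYCN, a growth-promoting MYC family factor, read 9842, and ZFP42, also called REX1 and widely used as a marker of undifferentiated cells, read 8197. SALL2, a zinc finger factor, completed the 6 highest at 6720.1. At the lower end stood ETV4, an ETS factor downstream of FGF signals (990.3), FOXO1, a forkhead factor (958), and HESX1, a homeobox repressor (334). FOXD3, a forkhead repressor, was the only measured member not above the reference level, at 258. For 13 of the 21 factors every probe set was above it. The MYCN level rests on 1 of 10 probe sets: the brightest read 9842, while the other 9 lay between 2.09 and 55.2.

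RNA-binding and chromatin partners of the network gave brighter signals, with 18 of 19 members above the reference level, against 43.9% of all genes. Their median percentile was 96.7. DNMT3B, the de novo DNA methyltransferase of the early embryo, stood highest at 50711 (rank 77). L1TD1, an RNA-binding protein derived from a transposon, read 32744 and 4503 on its 2 probe sets. DPPA4, a chromatin protein of pluripotent cells, read 26333, 4936 and 18.4 on 3 probe sets, so 1 of them was as dim as the reference genes. JARID2, which helps recruit a Polycomb repressive complex, read 23381, 15459 and 150.0. TRIM71, a repressor of messenger RNAs and itself a let-7 target, read 19206, and LIN28A has been given above. At the other end were UTF1, a chromatin factor (1282), DPPA2, the partner of DPPA4 (1114), and PIWIL2, a germline Argonaute protein (715). TERT, the catalytic subunit of telomerase, read 73.0 and 61.3 on its probe sets and was the only member not above the reference level. TERF1, a telomere-binding protein singled out beside TERT after its value was seen, read 18882 and 18147.

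Signalling and secreted proteins tied to the undifferentiated state were above the reference level in 16 of 16 measured genes of 20 listed, with a median percentile of 90.7. GAL, the precursor of the neuropeptide galanin, read 24512 on its brighter probe set and 319 on the other. SEMA6A, a transmembrane semaphorin, stood at 18018, FZD7, a WNT receptor, at 12502, and IGFBP2, a secreted binder of insulin-like growth factors, at 8162. GDF3, a TGF-beta family ligand that lies beside NANOG in the genome, read 6075, and PTPRZ1, a receptor phosphatase, read 5690.4. The lowest were NODAL, the ligand itself (1008), NTS, the neurotensin precursor (937), FGF4, a growth factor gene bound by SOX2 and POU5F1 (692), and VSNL1, a calcium sensor (571). Over the 3 lists together, 54 of 56 measured genes were above the reference level, 38 of them with every probe set. Their median percentile was 92.7, while 43.9% of all genes were above the level. The lists and the level were chosen with earlier results of these data known, so this excess is a description and no test. Levels just inside and outside were those of HESX1 (334) and FOXD3 (258).

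Surface and adhesion markers were above the reference level in 15 of 15 measured genes of 17 listed, against 43.9% of all genes. Their median percentile was 93.8. CD24, a small glycosylated surface protein, had the highest level at 88577 (rank 21), and its 6 probe sets all lay between 13464 and 88577. PODXL, the carrier of the TRA-1 epitopes used to sort undifferentiated cells, read 25258, and EPCAM, an epithelial adhesion protein, 25117. CD9, a tetraspanin, read 21168, 111 and 36.8 on 3 probe sets, ITGB1, an integrin subunit, had a level of 18486, and THY1, the CD90 antigen, of 12734. CDH1, the E-cadherin that holds the colonies together, read 11225 and 42.8 and was named after its value was seen. The 4 lowest were CDH3, P-cadherin (2218), CLDN6, a claudin of tight junctions (1821), CD44, the hyaluronan receptor (1706), and ALPL, the tissue-nonspecific alkaline phosphatase (339.6). ALPL lay close to the reference level, with its other probe set at 26.

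**Figure D2:**
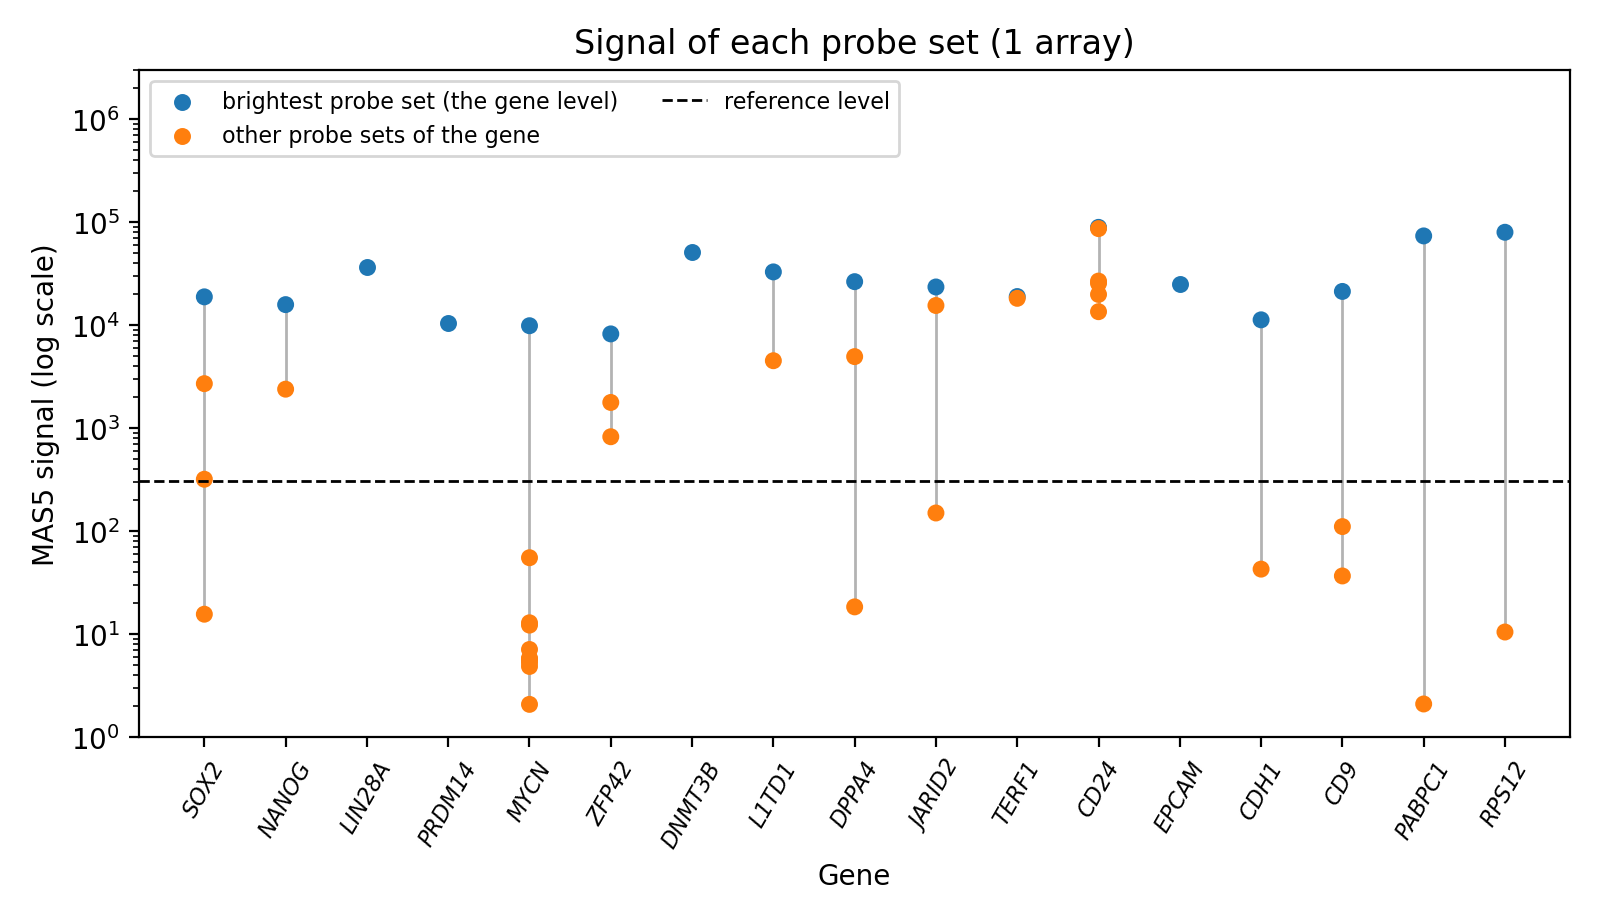
MAS5 signal (log scale) of every single-gene probe set of 17 genes, with the brightest, which gives the gene level, in blue and the others in orange; the dashed line is the reference level of 307. The probe sets of CD24 lie close together, those of MYCN and PABPC1 far apart, and LIN28A, DNMT3B and EPCAM have 1 probe set each.

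Markers of the primed state stood at higher percentiles than those of the naive state. Many primed-state genes, such as CD24, THY1 and FZD7, are also in the pluripotency or surface lists, and KDR is in the mesoderm list. TFAP2C and FGF4 of the naive list are in the pluripotency lists too. The counts are therefore not separate from those of the other lists. Primed-state genes were above the reference level in 16 of 19 measured genes of 20 listed (84.2%), at a median percentile of 93.9. Naive-state genes were above it in 10 of 17 of 20 listed (58.8%), against 43.9% of all genes, at a median percentile of 59.9. Every probe set was above it for 13 primed genes and 3 naive genes. All 3 of these naive genes, and some of the primed ones, have only 1 probe set. VIM, the vimentin gene of intermediate filaments, read 29146, and PLAAT3, a phospholipase, 10319.6. LIN28B, the paralogue of LIN28A, read 9842 on its 1 probe set, and ZIC2, a zinc finger factor of the primed network named after its value was seen, 6168. The dim end of the primed list held SOX3, a relative of SOX2 (220.3), HMX2, a homeobox factor (202), and CYTL1, a secreted protein (15.5). In the naive list DPPA5, an RNA-binding protein, read 4852, NLRP7, a maternal-effect gene, 4520.1, DNMT3L, a cofactor of DNA methyltransferases, 3425, and KLF4, a Krueppel-like factor, 2304. TFCP2L1, a naive-state transcription factor singled out after its value was seen, read 390.4. TBX3, a T-box factor, read 81.8, KLF2 55.0, KLF17, which marks human naive cells, 22, and HORMAD1, a meiosis protein, 3.33. DPPA5, NLRP7 and DNMT3L thus stood above the 90th percentile in a list whose other end lay among the dimmest genes.

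Markers of the 3 germ layers and of trophoblast were mostly below the reference level: 7 of 74 measured genes of 80 listed (9.46%) were above it, against 43.9% of all genes, and their median percentile was 32.1. Neural and ectoderm markers had 3 of 18 above, namely TUBB3, a beta-tubulin of neurons (28456 and 24946), NES, the nestin filament gene (4232 and 568), and DCX, a microtubule protein of migrating neurons (563 and 467). The neural regulators PAX6 (104) and SOX1 (14.0), named after their values were seen, were not above it. GFAP, the glial filament, read 9.15, LHX2 11, EN1 11.7, and EMX2 3.83, the last 3 being homeobox factors of the brain. Mesoderm markers had 2 of 19 above: KDR, a VEGF receptor also in the primed list (635), and PDGFRA, a PDGF receptor (463). TBXT, the brachyury factor of the primitive streak, read 171, and TBX5, a heart and limb factor, 198. The lowest of them were MESP1 (13.8), MEOX1 (9.94), HAND2 (8.86) and MYOD1, the muscle master regulator (8.53).

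Endoderm and mesendoderm markers had 1 of 18 above, RHOU, a small GTPase (3232 and 527). AFP, alpha-fetoprotein, stood at 303, just under the reference level, and CXCR4, the chemokine receptor used to sort endoderm, at 259.9. CER1, a secreted inhibitor of NODAL, read 168, and GATA6, a factor of primitive endoderm, 161. SOX17, a factor of definitive endoderm named after its value was seen, read 83.3, FOXA2, 26.9, TTR, transthyretin, 7.97, and GSC, goosecoid, 3.10. Trophoblast markers had 1 of 19 above, PGF, placental growth factor, on 1 probe set (1543) but not on its other (68.7). GATA2 read 190.3, GATA3, named after its value was seen, 45.3, and CDX2, the factor of the trophectoderm, 6.74. For 5 of the 7 markers above the reference level every probe set was above it. RHOU and the tubulin and filament genes TUBB3 and NES are also made by many cell types outside their lists.

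Germ cell markers were above the reference level in 4 of 13 measured genes of 14 listed (30.8%), against 43.9% of all genes. TFAP2C, an AP-2 factor that is also in the naive and pluripotency lists, read 2166 and 112, DND1, an RNA-binding protein, 570.2, KIT, the stem cell factor receptor, 489, and DAZL, an RNA-binding protein of germ cells, 346. DDX4, the VASA helicase that defines later germ cells, read 5.32, and NANOS3 7.83.

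Fibroblast and feeder cell markers were above the reference level in 9 of 20 genes (45.0%). This was close to the 43.9% of all genes and below the 51.3% of protein-coding genes. Their median percentile was 53.9, and 3 of 20 had every probe set above the reference level. The highest were COL1A1, a type I collagen chain (11552, 998, 224, 219 and 66.0), FN1, fibronectin (10332), TAGLN, transgelin of the actin cytoskeleton (9149, 6085 and 152), SPARC, a matrix protein (9028 and 1730.3), COL1A2, the other type I collagen chain (3312, 2600.5 and 106), and ACTA2, smooth muscle actin (1479). Of the 4 lowest members DCN, decorin, read 79.5, LUM, lumican, 65.3, PDGFRB, a PDGF receptor, 51.5, and FAP, fibroblast activation protein, 4.82. Of genes named after their values were seen, the collagens COL6A3, COL5A1 and COL3A1 read 1376, 597 and 107, and S100A4, a calcium-binding protein, 896. In RNA from a whole culture, few cells of a type and little RNA per cell cannot be told apart, and the part of fibroblasts or feeder cells in the COL1A1 and TAGLN signals was not tested.

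**Figure D3:**
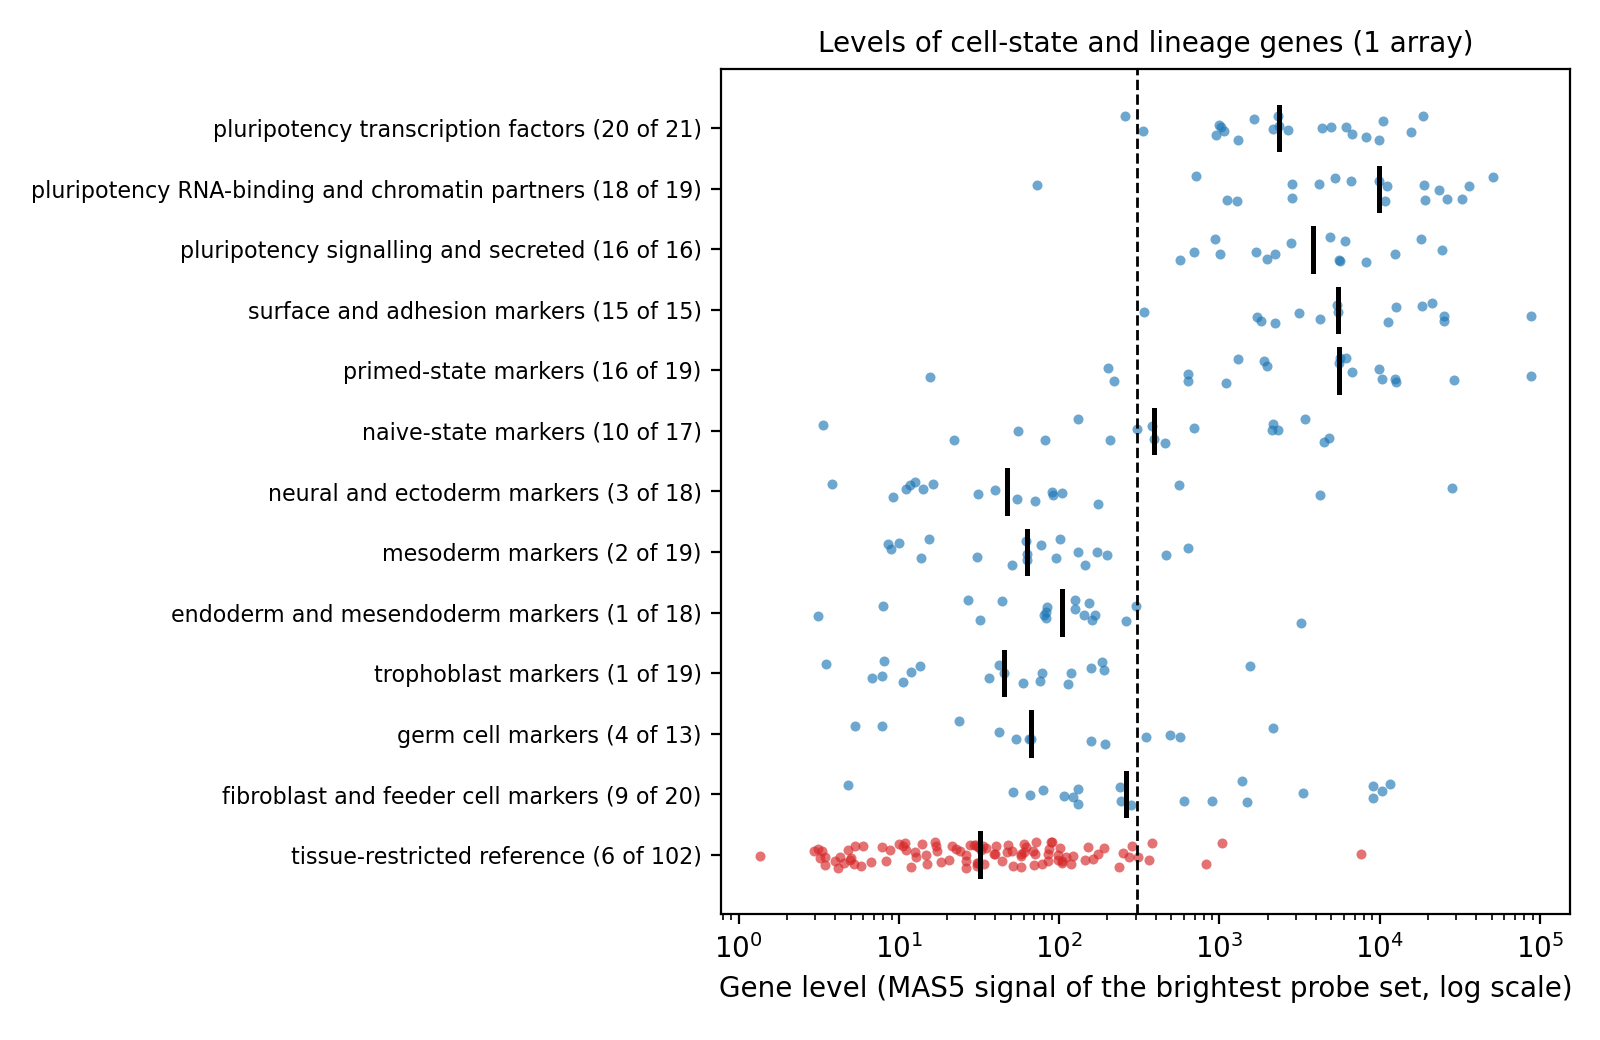
Gene levels (MAS5 signal of the brightest probe set, log scale) of the cell-state and lineage lists, 1 point per gene; vertical bars are list medians, the dashed line is the reference level of 307, and the labels give how many measured genes were above it. The pluripotency and surface lists lie almost wholly to the right of the line, and the lineage lists mostly to its left with TUBB3 (28456) far to the right.

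MicroRNA genes bear on the LIN28A result, so the sequences of the family tied to pluripotency and of 1 let-7 member are shown, as mature RNAs from RefSeq with the seed (bases 2 to 8, which pair with target messenger RNAs) in capitals. The 4 members of the miR-302 family and miR-367 lie within 635 bases on the minus strand of chromosome 4 (GRCh38.p14, chr4:112647877-112648511).
miR-302a-3p: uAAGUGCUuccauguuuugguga
miR-302b-3p: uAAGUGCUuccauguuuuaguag
miR-302c-3p: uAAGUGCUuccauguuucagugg
miR-302d-3p: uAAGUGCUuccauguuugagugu
miR-367-3p: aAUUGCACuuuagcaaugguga
let-7d-5p: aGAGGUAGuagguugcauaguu
The 4 miR-302 sequences share the seed AAGUGCU and differ only toward their 3′ ends, while miR-367 has the seed AUUGCAC and let-7d the seed GAGGUAG. The probe set annotated to MIR302B read 19780.5 (percentile 98.6) and the one annotated to MIRLET7D read 322 (percentile 56.9), just above the reference level. Both genes were named after their values were seen. Labelling from the poly-A end reads long precursor or host transcripts, so neither value measures the mature microRNA. Of 17 microRNA genes with a probe set of their own, 5 were above the reference level, against 43.9% of all genes.

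Of the pathways that maintain human embryonic stem cells, the FGF pathway had receptors and targets above the reference level on their brightest probe sets. In all, 17 of 21 measured genes of 24 listed (81.0%) were above the reference level, against 43.9% of all genes. Of the 21 genes, 7 had every probe set above it, and the median percentile was 78.5. Among receptors FGFR3 read 6568 and 84.5 on its 2 probe sets. FGFR1 read 2809, with the dimmest of its 7 probe sets at 199.9. FGFR2, named after its value was seen, read 2215, with the dimmest of its 11 probe sets at 3.50. FGF13, an intracellular member of the FGF family, read 6061. SPRY2, an inhibitor induced by FGF signals, read 2789. ETV5, an ETS factor downstream of these signals, read 2669.8, with the dimmest of its 5 probe sets at 7.27. FGF2, the ligand added to human embryonic stem cell media and also made by the cells, read 2227 and 1425. The lowest were MAPK3, an ERK kinase (162), FGFRL1, a decoy receptor (108), KLB, the FGF21 co-receptor (34.7), and FGF8 (33.7).

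In the NODAL and activin pathway 14 of 20 measured genes of 22 listed (70.0%) were above the reference level, against 43.9% of all genes. The median percentile was 74.3. SKIL, a feedback repressor of SMAD proteins, read 8218, GDF3 6075, and LEFTY1, a secreted NODAL inhibitor induced by NODAL, 4892. FST, which binds and blocks activin, read 3667, SMAD2, the signal transducer, 2912, and FOXH1, its DNA-binding partner, 2316. NODAL itself read 1008, 197 and 13 on 3 probe sets, and INHBB, an activin subunit, 55.9. CFC1, a NODAL co-receptor, read 107, PCSK6, a convertase that cleaves ligand precursors, 134, and ACVR1C, a type I receptor, 148. TDGF1, the main NODAL co-receptor, and LEFTY2 had no probe set that names them alone.

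BMP pathway genes were above the reference level in 9 of 19 measured of 21 listed (47.4%), at a median percentile of 50.4. The share was 43.9% over all genes and 51.3% over protein-coding genes. ID1 and ID2, inhibitors of DNA binding that BMP signals induce, stood highest at 24818 and 4639, and their relatives ID3 and ID4, the latter named after its value was seen, read 1226 and 457. SMAD1 read 1501 and SMAD5 1330.2, both carriers of the BMP signal, and ACVR1, a receptor, read 1069. Low values were those of BMPR1B, another receptor (75.6), NOG, the antagonist noggin (61.3), SMAD9 (56.2) and BMP8A (13.3). BMP4, the ligand that drives these cells toward trophoblast and mesoderm and named after its value was seen, read 100.4.

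In the WNT pathway 15 of 24 measured genes of 29 listed (62.5%) were above the reference level, against 43.9% of all genes. The median percentile was 70.0. CTNNB1, beta-catenin, read 16574, FZD7 12502, and TCF7L2, its partner on DNA, 5703. The secreted inhibitors SFRP1 and SFRP2 read 5562 and 5547, and the receptor FZD5 3034. Among the lowest were FZD1 (90.9), DKK1, an antagonist (59.4), WNT11 (13.5) and WNT1 (3.84).

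Chromatin regulators were broadly above the reference level, against 43.9% of all genes and 51.3% of protein-coding genes. Among DNA methylation and TET enzymes 11 of 13 measured of 15 listed were above it, at a median percentile of 89.8. DNMT3A, the second de novo methyltransferase, read 7536, UHRF1, which guides maintenance methylation, 4543, TET1, which oxidises methylcytosine, 4212, and DNMT1, the maintenance enzyme, 3507. TET3 read 644, TET2 132, and ZFP57, a guard of imprints, 86.8, so 2 of the 3 TET genes were above the level. Polycomb proteins were above it in 18 of 21 measured of 25 listed, at a median percentile of 80.0, and the histone binders RBBP7 and RBBP4 read 11934 and 9324. PHC1, a Polycomb subunit, read 11194, MTF2, which brings the repressive complex to DNA, 7280.1, and KDM2B, which binds unmethylated CpG islands, 4198. BCOR (403) stood low, and EPOP (129), PCGF1 (116) and CBX7 (30.3) were not above the level. EZH2, the histone methyltransferase of the complex, read only 692 on its 1 probe set and was named after its value was seen. Of the BAF chromatin remodellers 19 of 23 were above it. SMARCC1 read 6420.2, SMARCE1 5365, SMARCA4, the BRG1 ATPase, 5332, and ACTL6A, the form of the actin-like subunit in dividing cells, 3020.2. The 4 lowest were ACTL6B, the neuronal form of ACTL6A (85.3), BCL7A (70.0), DPF3 (64.3) and SMARCD3 (28.3), while DPF1, another neuronal subunit named after its value was seen, read 472.

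Genes of cell division were nearly all above the reference level, against 43.9% of all genes and 51.3% of protein-coding genes. All 28 DNA replication genes were above the reference level, 22 of them with every probe set, at a median percentile of 91.4. PCNA, the sliding clamp, read 19346, TYMS, thymidylate synthase, 12028, MCM6, a helicase subunit, 11312, and GMNN, geminin, 11214. RRM2, a ribonucleotide reductase subunit, read 10751. Even the lowest, CDC45 (1008), ORC2 (958), ORC1 (951) and POLD1, a polymerase (929), stood well above the level. Mitosis and spindle genes were above it in 27 of 28, at a median percentile of 91.2, with PTTG1, securin, at 17898, UBE2C, a ubiquitin-conjugating enzyme of mitotic exit, at 14509, and BUB3, a checkpoint protein, at 11855. PLK1, a mitotic kinase, read 298 and was the only one not above it, while NUF2 read 917 and CENPA, the centromeric histone, 909.

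Cyclins, CDKs and their inhibitors were above the reference level in 23 of 27 measured of 28 listed, against 43.9% of all genes. CCND2, a D-type cyclin, read 18578, 3274, 496 and 465 on 4 probe sets, CCNB1, the mitotic cyclin, 10790.1, CDK4 8520.2, CDK1 7267, and CCNB2 6993. The 4 genes not above the level were CCNE2 (207) and the inhibitors CDKN2A (164), CDKN2D (75.3) and CDKN2B (41.9), of which the CDKN2 genes encode the INK4 proteins and CDKN2A also ARF. Among stress and apoptosis genes 24 of 27 measured of 30 listed were above it, at a median percentile of 77.7. CYCS, cytochrome c, read 37361, MCL1, a survival protein, 12499.9, PMAIP1, the killer protein NOXA, 9886, TNFRSF10B, a death receptor, 9402, and MDM2, a ubiquitin ligase, 6643. The 3 genes not above it on any probe set, BCL2 (83.4, 62.4, 38.4 and 35.2), BCL2L2 (299 and 68.1) and BCL2A1 (24.3), encode survival proteins of the BCL2 family, as does MCL1.

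Antigen presentation and interferon genes were above the reference level in 13 of 25 measured of 27 listed (52.0%). This was near the 51.3% of protein-coding genes, while the share over all genes was 43.9%. B2M, the light chain of class I molecules, read 40181, 31346 and 149, HLA-C 12008, HLA-B 8407, HLA-F 2235 and HLA-E 1912. The classical class I genes are so alike that their probe sets cannot be told apart with certainty. Interferon-induced genes lay on both sides of the level: ISG15 read 1623, IFI6 556, RIGI 402 and MX1 397, these 4 being named after their values were seen, while OAS1 read 77.2 and IFIT1 15. NLRC5, the activator of class I genes, read 109, and CIITA, the activator of class II genes, 76.8. HLA-DRA, a class II chain named after its value was seen, read 132. Imprinted genes, of which only the copy from 1 parent is used, were above the level in 12 of 20 measured of 23 listed. GNAS, a G protein gene, read 21853, MEST 5241, GRB10 4212 and NDN 3374, while PEG3 read 59.9 and DIRAS3 22.1. SNRPN, which is used from the paternal copy, read 60.8 on its single-gene probe set and PLAGL1, a zinc finger factor, 61.2.

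Long noncoding RNAs had few members above the reference level. Over the array 134 of 2657 lncRNA genes (5.04%) were above it, against 8471 of 16520 protein-coding genes (51.3%). Of the 11 measured in the list of 22, 5 were above it: MALAT1, a nuclear RNA (18761), DANCR, which holds back differentiation (11268), TUG1 (2874), CRNDE (1392) and TUNAR (1024). LINC00458, described in human embryonic stem cells and named after its value was seen, read 243. GAS5 read 155 and HOTAIR 29.5, each on its only single-gene probe set. Outside the list NORAD, which sequesters Pumilio proteins, read 15515, and ZFAS1, a host of small nucleolar RNAs, 11412, both named after their values were seen.

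The brightest signals of the array came from the translation machinery and from mitochondrial transcripts. The highest gene was the mitochondrial COX2, a subunit of cytochrome c oxidase, at 143736, with its other probe set at 129038. Next came RPL37A (132455) and RPS19 (125129), both ribosomal proteins, then TMSB4X, which binds actin monomers (122197), and the ribosomal proteins RPS10 (119018) and RPL41 (117604). EEF1A1, which brings charged tRNA to the ribosome, read 114491. Of the 30 highest genes 20 encode ribosomal proteins and 2 lie in the mitochondrial genome, the second being ATP6, an ATP synthase subunit (87645). The other 8 were TMSB4X, EEF1A1, HUWE1, TPT1 (103100.0), GAPDH (98270.3), ACTB (90674), CD24 and BEX3 (83417). All 7 measured mitochondrial genes were above the reference level, from 1236 to 143736, against 43.9% of all genes.

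Cross-matching probe sets bear on this order. Of the 30 highest genes 29 took their level from a probe set with an ID ending in _s_at or _x_at, and such IDs made up 317 of the 411 brightest probe sets (77.1%) but 31.5% of all 41091. HUWE1, a ubiquitin ligase, ranked 12 through an _x_at probe set at 104579, while its dimmest of 5 read 11.9. The part of other transcripts in such signals was not tested. RPL7, RPS6 and the other ribosomal genes have many processed pseudogenes, which such probe sets can also match.

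Of 59 measured ribosomal protein genes of 85 listed, 49 were in the highest 1% of genes, and the median percentile was 99.7. Above the reference level were 55, against 43.9% of all genes. Among the exceptions RPLP2, a stalk protein of the ribosome in all cells, read 180.0, and RPL36A, another general subunit, 134. RPL10L (159.8) and RPL3L (28.9), the remaining genes not above the level, are forms known from testis and muscle. Translation factors were above it in 38 of 42 measured of 46 listed, at a median percentile of 96.5. After EEF1A1 came PABPC1, the poly-A binding protein (73156), EEF2, the translocase (48962), EIF3E (47345), EIF1 (43270.5) and EIF3L (40852), the last 3 acting in initiation. EEF1A2, the form of muscle and neurons, read 139.6, EIF5A2 209, EIF3C 90.6 and EIF4A2 27.2. EIF3C, EIF4A2 and RPL36A each had only 1 probe set that names 1 gene. Probe sets that name several genes are left out by the rule, so these low values do not show that the transcripts are scarce.

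Amino acid handling was read in 8 lists, since leucine and lysine are the amino acids the study varied. Over all genes 43.9% were above the reference level, and over protein-coding genes 51.3%. Of the cytosolic aminoacyl-tRNA synthetases, which charge tRNA with its amino acid, 18 of 18 measured of 23 listed were above the reference level, at a median percentile of 92.8. KARS1, the lysine enzyme, stood highest at 30242, followed by GARS1 for glycine (25520.4), IARS1 for isoleucine (18879), NARS1 for asparagine (15444), TARS1 for threonine (14051) and CARS1 for cysteine (8567). LARS1, the leucine enzyme named for the study's question, read 5103, 4360.4, 1924 and 269.9 on its 4 probe sets, of which 3 were above the level. The lowest were WARS1 for tryptophan (3081), AARS1 for alanine (2826), FARSA, a phenylalanine enzyme subunit (921), and VARS1 for valine (644).

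Amino acid carriers of the plasma membrane and lysosome were above the reference level in 18 of 32 (56.25%), at a median percentile of 60.9. The share was 43.9% over all genes and 51.3% over protein-coding genes, so single carriers stood out more than the list did. SLC38A2 and SLC38A1, carriers of glutamine and other neutral amino acids, read 15055 and 8578. SLC7A3 and SLC7A1, carriers of lysine and arginine, read 6564 and 5885. SLC7A5, which imports leucine, read 4789.7, its heavy chain SLC3A2, named after its value was seen, 1854, and SLC7A11, the cystine carrier, 3089. SLC38A3 (43.9), SLC6A14 (31.0), SLC6A9, a glycine carrier (9.77), and SLC7A10 (9.40) were at the bottom. Among genes of mTORC1, the kinase complex that senses amino acids at the lysosome, 27 of 34 measured of 36 listed were above the level. LAMTOR5 (8725), LAMTOR3 (3457) and RRAGC (3458) belong to the lysosomal platform, RHEB (7751) switches the kinase on, and SEC13 (7369) and SEH1L (3986) belong to the GATOR2 complex. MTOR itself, named after its value was seen, read 705 and 82.9. DEPDC5 (143), RPTOR, the mTORC1 scaffold (141), CASTOR1, an arginine sensor (104), and WDR24 (18.7) were lowest.

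Genes of the eIF2 kinases and ATF4 targets, parts of a response to a lack of amino acids, were above the reference level in 23 of 29. The share was 43.9% over all genes and 51.3% over protein-coding genes. Whether the response was active in complete medium was not tested. PSAT1, a serine synthesis enzyme, read 17444, ATF4 itself 15422, XPOT, a tRNA exporter, 5970.4, and PHGDH, the first enzyme of serine synthesis, 4639. EIF2AK1, the heme-sensing kinase, read 3971, and GCN1, the activator of the amino acid sensor kinase, 2935. TRIB3, a pseudokinase named after its value was seen, read 242, PPP1R15A 205, NUPR1 129 and FGF21, a hormone, 35.1. DDIT3, the stress factor CHOP named after its value was seen, read 319, near the reference level.

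Enzymes of serine, glycine and folate metabolism were above the reference level in 13 of 18 measured genes of 20 listed, against 43.9% of all genes. Their median percentile was 91.4, and 10 of 18 were in the highest 10% of all genes. GCSH (10303) and GLDC (9564) belong to the glycine cleavage system, and MTHFD1 (9754) and MTHFD2 (9581) are folate enzymes of cytosol and mitochondria. PHGDH and PSAT1 have been given above. The low end held ALDH1L2 (73.4), SHMT1, the cytosolic serine hydroxymethyltransferase (56.5), GNMT (36.7) and MTHFD1L (10.1), while the mitochondrial SHMT2, named after its value was seen, read 8302. In the methionine cycle 15 of 19 genes were above the level. MAT2A, which makes S-adenosylmethionine, read 17716, MAT2B, its regulatory subunit, 8096, and AHCY, which clears S-adenosylhomocysteine, 7150.3. The polyamine enzymes SMS, ODC1 and AMD1 read 15302, 11999 and 7803. MAT1A, the form of liver, read 12.4, BHMT 107 and BHMT2 24.4.

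Leucine breakdown genes were above the reference level in 12 of 13 measured of 14 listed, against 43.9% of all genes. Their median percentile was 70.4. BCAT1, the cytosolic transaminase of branched-chain amino acids, read 14075, 11015, 1495 and 1019 on 4 probe sets, all above the level. DBT, a subunit of the branched-chain dehydrogenase, read 4305, MCCC2, a carboxylase subunit, 2632, and BCAT2, the mitochondrial transaminase, 373. HMGCLL1 read 42.8 and was the gene not above it. Lysine breakdown genes were above it in 11 of 12, at a median percentile of 86.9, with ALDH7A1 at 4506, ECHS1 at 4365 and HADH at 4316. AASS, the enzyme that starts the main route of lysine breakdown, read 745, GCDH, glutaryl-CoA dehydrogenase, 670.3, AADAT 425 and HYKK, a hydroxylysine kinase, 171.

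Energy metabolism genes were mostly above the reference level, against 43.9% of all genes. In glycolysis 20 of 25 measured of 29 listed were above it and 8 were in the highest 1%, including GAPDH, LDHB (62189.9), PGK1 (51835), LDHA (44032), ENO1 (40492) and ALDOA (30135). The 4 lowest are forms known from other tissues, LDHC of testis (58.5), PKLR of liver (33.2), PGAM2 of muscle (12.6) and HK3 of blood cells (6.38). Other tissue forms, named after their values were seen, were above the level, with PFKM of muscle at 2145, ENO2 of neurons at 1369, ALDOC of brain at 891 and ENO3 of muscle at 358. The respiratory chain had 38 of 42 measured of 47 listed above the level, with COX7C at 61902, ATP5F1A at 45540.5 and COX7B at 33871. Its 4 genes below were COX6A2 (180.4), COX4I2 (145), COX7A1 (131) and COX8C (32.4), forms known from muscle, lung or testis.

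Chaperones and proteasome genes were above the reference level in 40 of 42 measured of 47 listed, against 43.9% of all genes. Their median percentile was 98.1. HSPD1, the mitochondrial chaperonin, read 74069.8, HSP90AA1 52202, PSMB1, a proteasome subunit, 42267, and HSP90AB1 33414. HSPA1L (129) and PSMA8 (87.0), both known from testis, were not above it. Cytoskeleton and intermediate filament genes had a median percentile of 99, with 25 of 29 measured of 30 listed above the level. TMSB10 read 73015, TUBA1B 67442, TUBA1C 62145 and TUBB2A 48426, after TMSB4X and ACTB, and tubulin genes are alike enough for their probe sets to overlap. KRT5 (91.6) and KRT14 (39.6) of the epidermis, DES of muscle (127) and KRT7 (158) were not above it, while KRT18 and KRT8 of simple epithelia, named after their values were seen, read 40306 and 7854.

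**Figure D4:**
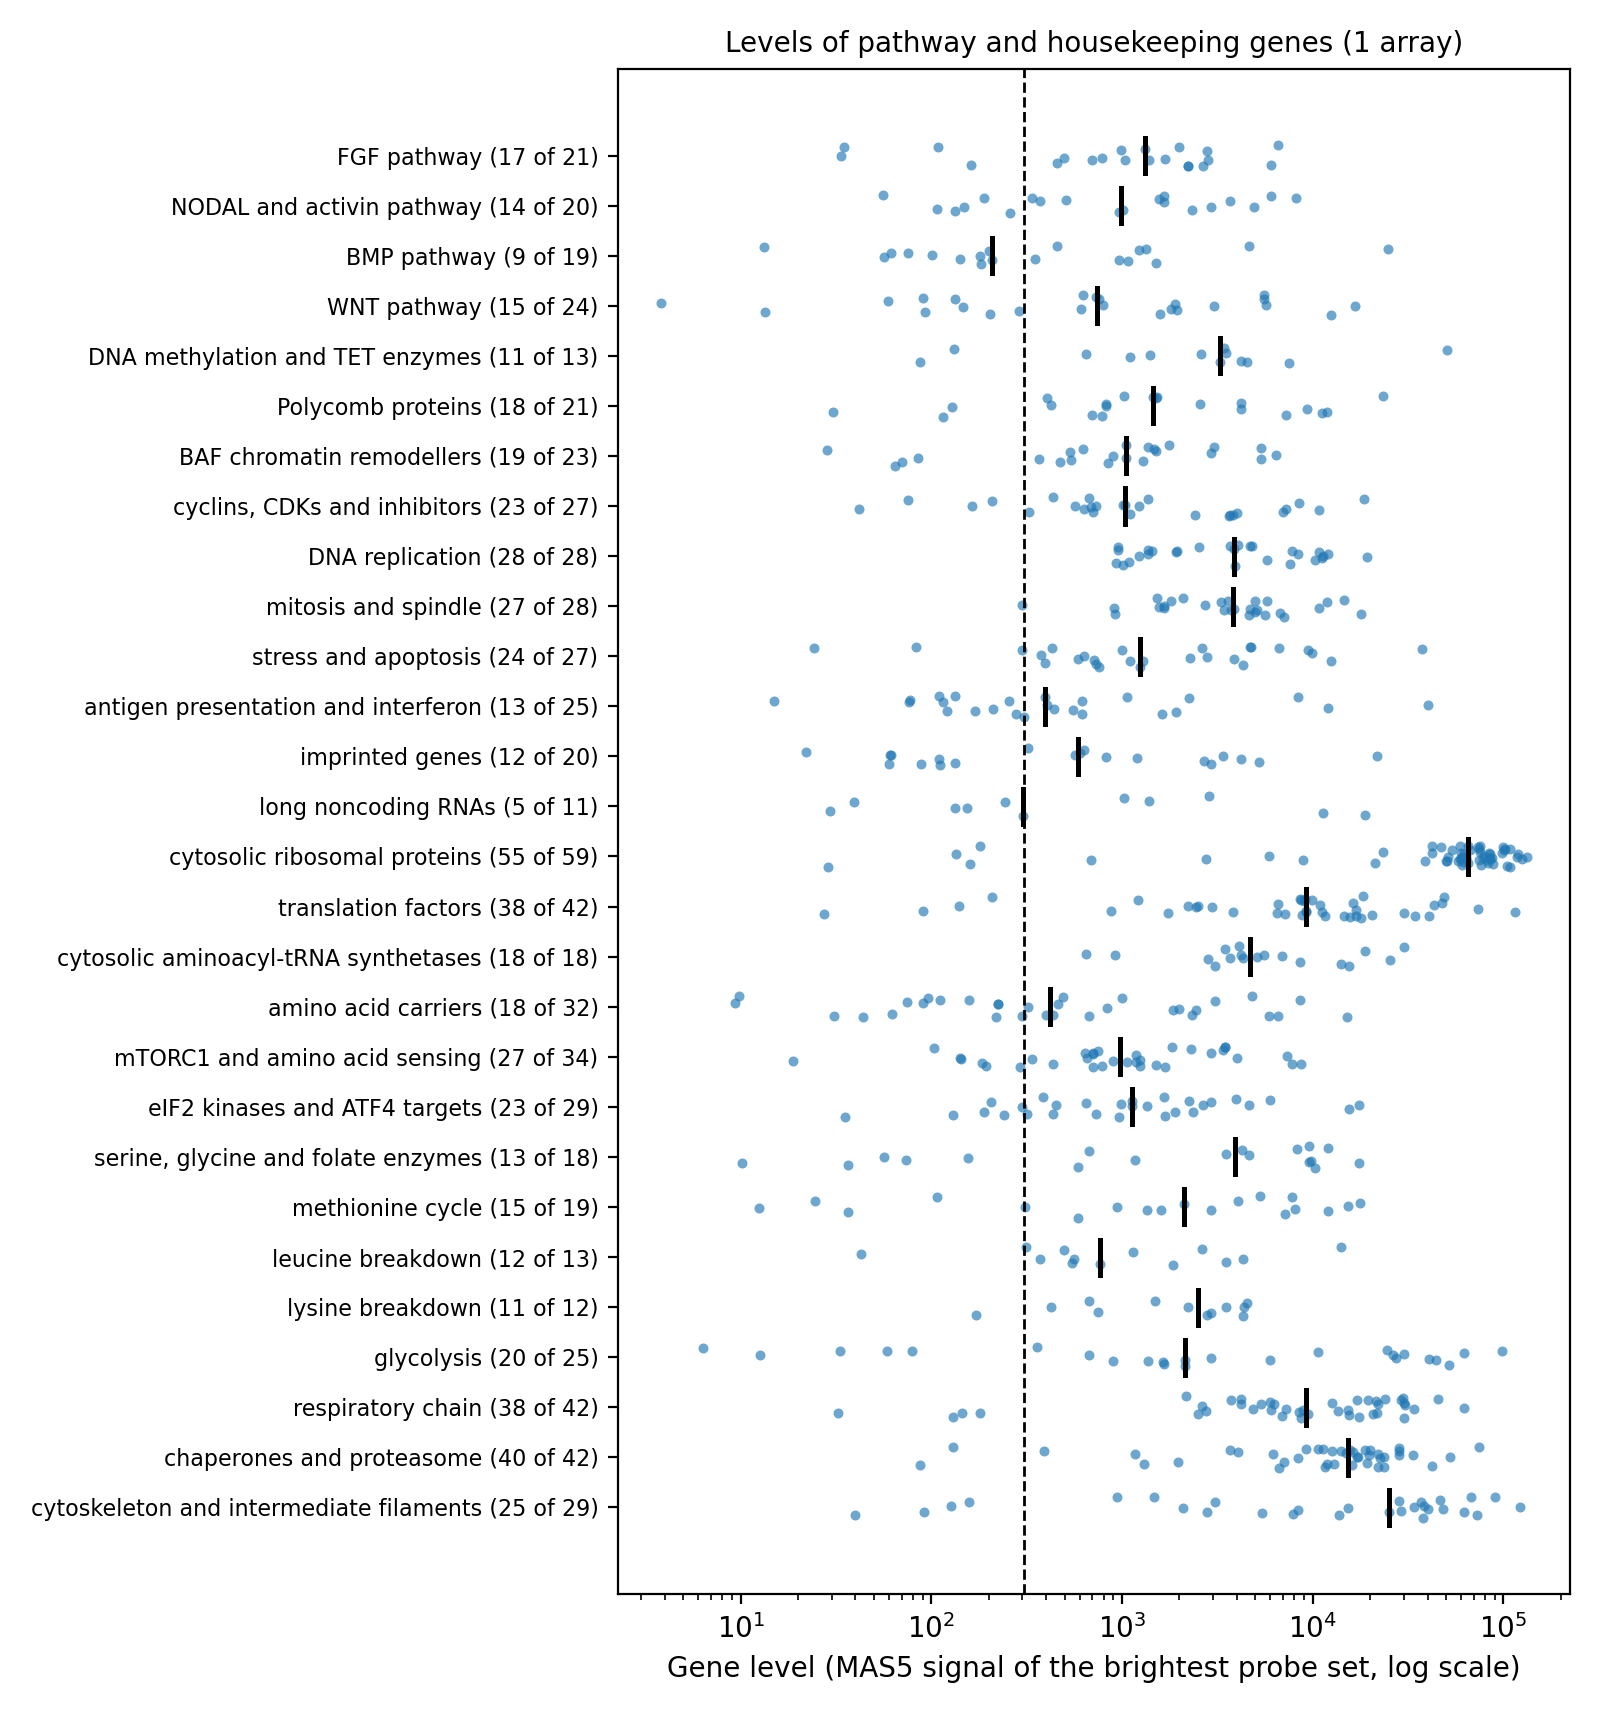
Gene levels (MAS5 signal of the brightest probe set, log scale) of 28 pathway and housekeeping lists, 1 point per gene, with list medians as vertical bars, the reference level of 307 as a dashed line and the counts above it in the labels. Ribosomal proteins gather at the right end (median percentile 99.7), all 28 DNA replication genes lie right of the line, and amino acid carriers straddle it (18 of 32).

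The spread between probe sets of a gene was wide, and it is the only spread within a gene that 1 array gives. It is a spread between different probe sets and does not measure the error of a gene level. Over the 10523 genes with at least 2 probe sets the median SD of log2 signal was 1.81, with quartiles of 0.947 and 2.74. Of the 5971 such genes above the reference level, 1449 (24.3%) had every probe set above it. In the highest 10% of genes, at levels from 3332 up, 783 of 1349 genes with several probe sets (58.0%) had a probe set that was not above it. Of genes with 1 probe set 29.2% were above the level, and of genes with several 56.7%, whose level is the brightest of several. The 10 widest spreads in the highest 10% were those of PABPC1 (73156 against 2.11), RPLP1 (78333 against 2.98), PPIA, RPS12, PSMD6, ATP5F1A, PRMT1, MAPK6, ATP5MC2 and ANAPC13, with SDs from 8.20 to 10.7. Each of these 10 genes has 2 probe sets, 1 bright and 1 under 11 units. The narrow spreads of ACTB (90674 to 86295) and GAPDH (98270.3 to 82272) show that several probe sets can also agree closely.

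Promoter sequence, which played no part in choosing the probe sets, was set beside the levels. Windows of 250 bases before the start came from RefSeq (GRCh38.p14), for the 11468 genes with exactly 1 listed start. The CpG ratio is the number of CG dinucleotides over the number that the C and G content of the window would give. It was 0.401 ± 0.321 (SD over 1146 genes) in the lowest 10% of genes by level and 0.862 ± 0.195 (SD over 1147 genes) in the highest 10%, a difference of 0.460 in the means. The mean number of CG dinucleotides was 9.12 and 22.4. A TATA box (TATAAA, either strand) was found in 17.6% of windows in the lowest 10% and 6.28% in the highest 10%, against 8.98% of all windows. A GC box (GGGCGG, either strand), which overlaps CG dinucleotides by its letters, was found in 28.4% and 70.0%, against 56.8% of all. In 10 groups of equal size by level, most of the rise in CpG ratio lay between the third (0.462) and the seventh (0.810). From the seventh group to the highest the mean ratio rose less, through 0.829 and 0.852 to 0.862. TATA boxes were rarest in the eighth and ninth groups (3.84% in each), and GC boxes were most frequent in the seventh (75.8%). Genes are not independent replicates, so these are descriptions without a test.

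**Figure D5:**
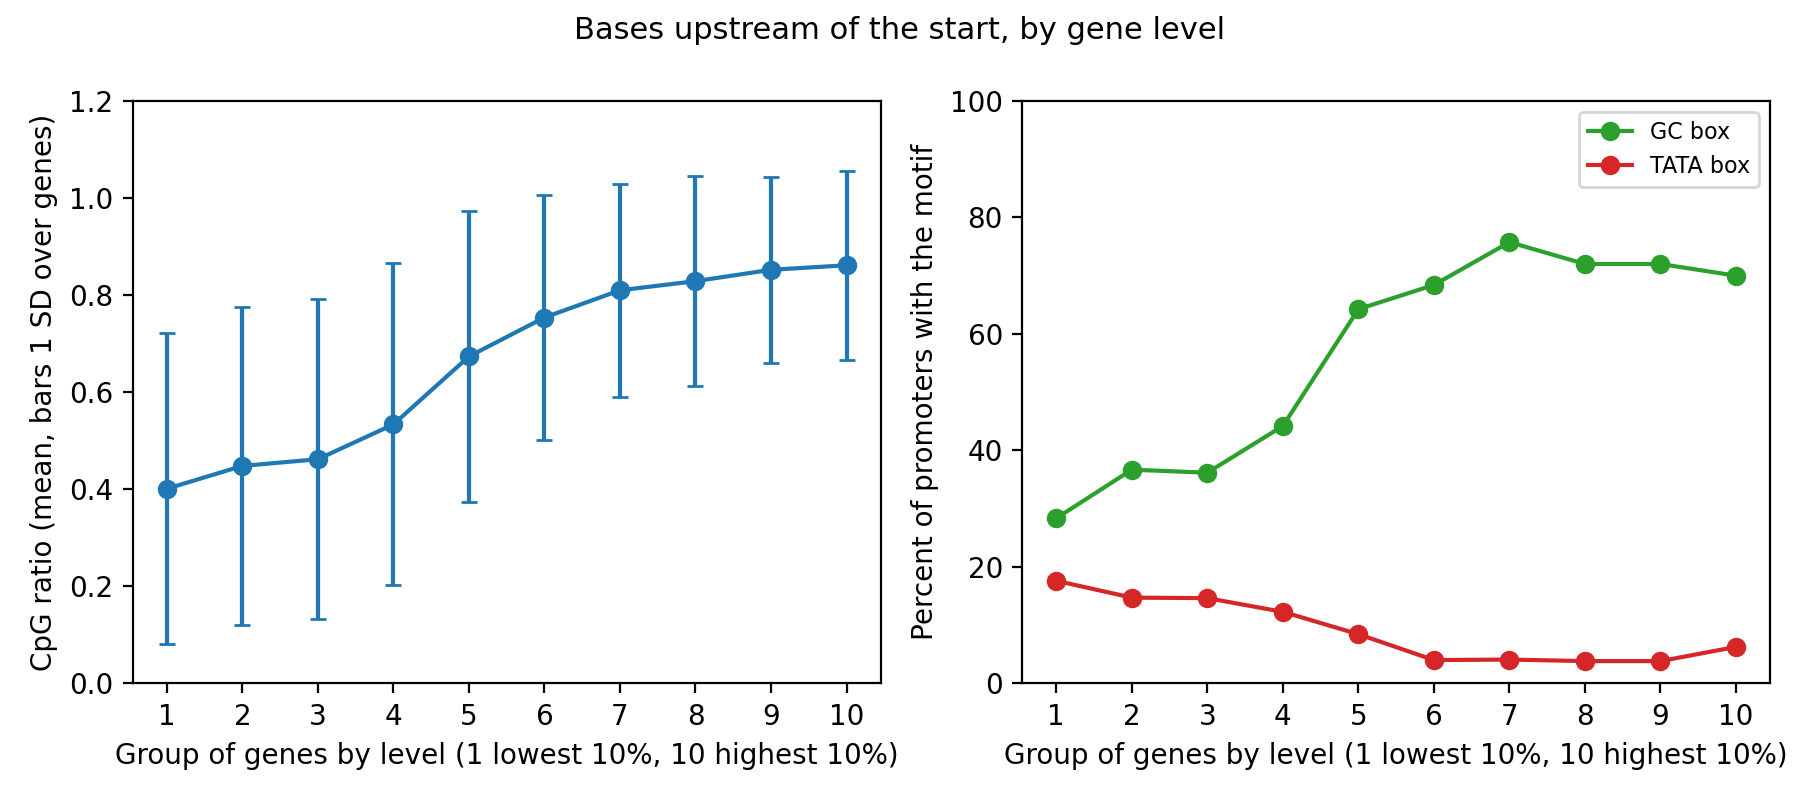
Left, mean CpG ratio of the 250 bases before the start in 10 groups of equal size by gene level, with bars of 1 SD over genes; right, percent of these windows with a GC box or a TATA box. The CpG ratio climbs from 0.401 to 0.862 across the groups. TATA boxes go from 17.6% in the lowest group to 3.84% in the eighth and ninth and 6.28% in the highest.

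The windows of pluripotency genes covered nearly the whole range of CpG ratios. The 26 genes of the 3 pluripotency lists with 1 listed start had a mean CpG ratio of 0.599 ± 0.311 (SD over 26 genes), against 0.663 for all genes and 0.926 ± 0.135 (SD over 44 genes) for ribosomal proteins. In 8 of the 26 the ratio was under 0.4: GDF3 (0), DNMT3B (0.129), NTS (0.141), ZSCAN10 (0.170), SALL2 (0.253), DPPA4 (0.285), NANOG (0.300) and NODAL (0.339). At the other end were UTF1 (1.04), FOXO1 (0.958), FGF2 (0.940), TCF3 (0.935) and TRIM71 (0.919). None of the 26 windows held a TATA box, against 8.98% of all windows, a difference of few windows at this number. Of the 68 reference genes 32 (47.1%) held one, at a mean CpG ratio of 0.191. The windows of 5 genes are printed to show the range, with each CG in capitals. NANOG and GDF3, neighbours on chromosome 12, are poor in CG, TRIM71 and ZIC2 are rich in it, and GCG, the glucagon gene of the reference list with a level of 4.95, stands for a dim gene.
NANOG, chr12:7789152-7789401, plus strand: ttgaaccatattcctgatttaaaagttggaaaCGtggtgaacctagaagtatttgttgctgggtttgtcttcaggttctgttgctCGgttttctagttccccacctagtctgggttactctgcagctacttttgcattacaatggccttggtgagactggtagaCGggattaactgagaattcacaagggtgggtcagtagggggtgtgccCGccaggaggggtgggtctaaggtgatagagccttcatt
GDF3, chr12:7695776-7696025, minus strand: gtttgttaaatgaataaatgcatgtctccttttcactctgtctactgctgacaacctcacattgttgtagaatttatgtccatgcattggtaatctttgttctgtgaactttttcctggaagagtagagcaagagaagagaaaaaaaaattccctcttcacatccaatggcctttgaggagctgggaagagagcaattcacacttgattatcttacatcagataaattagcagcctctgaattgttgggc
TRIM71, chr3:32817747-32817996, plus strand: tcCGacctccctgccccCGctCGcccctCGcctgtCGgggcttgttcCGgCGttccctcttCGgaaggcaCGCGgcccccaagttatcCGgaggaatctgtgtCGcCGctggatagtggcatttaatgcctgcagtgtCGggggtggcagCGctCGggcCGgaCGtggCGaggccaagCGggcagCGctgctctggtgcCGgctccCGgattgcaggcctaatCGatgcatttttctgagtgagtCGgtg
ZIC2, chr13:99981534-99981783, plus strand: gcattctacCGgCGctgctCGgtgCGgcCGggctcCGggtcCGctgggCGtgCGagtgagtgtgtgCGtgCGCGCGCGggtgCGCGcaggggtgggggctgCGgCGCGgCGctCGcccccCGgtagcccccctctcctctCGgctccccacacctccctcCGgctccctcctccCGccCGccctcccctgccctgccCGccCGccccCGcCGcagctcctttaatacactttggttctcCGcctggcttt
GCG, chr2:162152248-162152497, minus strand: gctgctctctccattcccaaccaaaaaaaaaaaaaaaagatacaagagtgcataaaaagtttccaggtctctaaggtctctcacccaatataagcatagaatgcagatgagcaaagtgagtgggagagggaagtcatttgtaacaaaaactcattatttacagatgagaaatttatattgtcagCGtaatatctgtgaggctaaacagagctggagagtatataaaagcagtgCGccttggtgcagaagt
These windows hold 4, 0, 25, 31 and 2 CG dinucleotides in the order printed. The levels of NANOG (15765) and TRIM71 (19206) were of like size although their windows differ in this way.

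The letters that POU5F1 and SOX2 read were searched in the same windows. The octamer core ATGCAAA (either strand) was in 3 of 26 pluripotency windows, those of NANOG, SOX2 and SFRP2, and in 3.16% of all. The SOX core CATTGT (either strand) was in 3 of 26, those of NANOG, GDF3 and SALL2, and in 7.01% of all. Both cores side by side with 1 base between, the arrangement in which the 2 factors bind together, occurred in 2 of 11468 windows. One was NANOG, where the cores and the base between them lie 120 to 107 bases before the start. They are printed in capitals within 30 bases of the plus strand (chr12:7789274-7789303).
NANOG element: cagctactTTTGCATtACAATGgccttggt
The other was NRARP, an inhibitor of NOTCH signalling with a level of 970.4 (percentile 74.1), named after its value was seen. A match of letters is no evidence of binding, and the windows leave out enhancers farther away.

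Other lists differed in their windows too. A CCAAT box (CCAAT, either strand), which is found before many genes of the cell cycle, was in 16 of 20 mitosis and spindle windows (80.0%) and in 10 of 11 serine, glycine and folate windows (90.9%), against 34.8% of all. Mitosis genes such as UBE2C (14509) and DNA replication genes such as PCNA (19346) also had CG-rich windows, with mean CpG ratios of 0.911 ± 0.131 (SD over 20 genes) and 0.951 ± 0.196 (SD over 19 genes).

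Control probe sets bear on the quality of this array. Spike transcripts, which are added in rising amounts, rose in signal in that order, from 987 to 1879 for bioB, 2396 to 5013 for bioC, 7757 to 21202 for bioD and 45830 to 92420 for cre. The 3′ control probe set of ACTB read 5.44 times its 5′ one, and that of GAPDH 1.08 times its 5′ one. The part of RNA length or labelling in the ACTB ratio was not tested.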

How the data were processed

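RNA of khES3 cells in complete medium was measured on 1 array (n = 1). The authors deposited 1 intensity value for each probe set, on a linear scale. Per the submitters' processing notes MAS5 made these values. The version, settings and detection calls of MAS5 are not given in the sources used. The trimmed mean of the array (2% off each end) was 500.1, so the signals had been scaled, and no further normalization was done. Genes were named from the platform annotation: 41037 of 41091 single-gene probe sets matched a RefSeq Entrez identifier, and 0 symbols changed. A gene took its brightest probe set. No test was run, as 1 array allows none. The 41 gene lists (1096 genes, 983 measured), the members and the reference level were chosen with earlier results of these data known. Named were the 4 markers, the 30 highest genes, up to 6 highest and 4 lowest genes of a list and the 10 widest spreads among the highest 10% of genes. All other genes were named after their values were seen. Alternatives covered the probe set taken, ID endings, the reference level and the promoter window. The leucine and lysine content of proteins had been planned and was not analysed here. Scripts were tested on simulated data. Python 3.11.15, numpy 2.4.6, pandas 2.3.3 and matplotlib 3.10.9 were used. Precision is limited by the single array.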

Additional observations from a re-analysis of the deposited data

How the results depend on the processing

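The count of pluripotency genes above the reference level was 54 of 56 (96.4%). Under 6 alternatives it ran from 38 of 56 (67.9%) on the dimmest probe set to 56 of 56 at the 40th percentile of all probe sets. Without probe sets ending in _x_at, _s_at or _a_at it was 39 of 44 (88.6%). At these settings, in the order given, 22.2%, 73.9% and 37.3% of all genes were above the level. Each pluripotency count stayed within 1.5 times 54, a limit that no rise from 54 of 56 could pass. The median percentile of these genes was 92.7, and it was 91.4 with the median probe set, 89.7 with the dimmest and 92.8 without probe sets ending in _x_at, _s_at or _a_at. The count of all genes above the level, 8677, became 4381 with the dimmest probe set (reference level recomputed as 271), 4945 with the 99th percentile of the reference genes as the level (1029) and 14607 with the 40th percentile of all probe sets (54.7). Germ layer and trophoblast markers above the level numbered 7, and 11 with the 90th percentile (190), 4 with the 99th and 42 of 74 with the 40th percentile of all probe sets. The CpG ratio difference of 0.460 was 0.442 with the median probe set, 0.309 with the dimmest, 0.432 without the ID endings and 0.432 between the highest and lowest 20% of genes. It was 0.466 with the bases after the start, and 0.418 over all listed starts, an alternative chosen after seeing the data. The median spread of 1.81 became 1.85 without the ID endings and 2.10 in genes above the level. The 8 alternatives for the leucine and lysine content of proteins were not run. No paired analysis was possible because each medium had 1 array. No replicate could be left out, for the same reason. Dim signals limit what can be said of genes under the reference level.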

Other observations

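Of the 198 genes in the highest 1% of levels, 102 were in a list and 96 in none. Several of the 96 are known from embryonic stem cells or embryos, and all genes here were named after their values were seen. GJA1, the gap junction protein connexin 43, read 65878 on its single probe set, and IFITM1, an interferon-induced membrane protein, read 59142. APELA, a secreted peptide hormone of the early embryo, read 27622 on 1 probe set. Below the highest 1%, IGF2BP3, a fetal RNA-binding protein, read 18413, and CYP26A1, which breaks down retinoic acid, 16780.3.

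Metallothionein genes encode small metal-binding proteins, and only those with MT1 or MT2 symbols were counted. They were above the reference level in 8 of 8 measured genes, against 43.9% of all genes. Their levels ran from 1723 for MT1M to 36263 for MT1X, with a median of 28398. MT2A read 32051. These genes are near-identical, and the part of shared signal in their values was not tested.

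Probe sets outside the rule also carried signal. Of the 11721 probe sets with no gene named, 954 (8.14%) were above the reference level, with a median of 38.4 and a highest value of 139093. Of the 1801 that name several genes, 735 (40.8%) were above it, and of the 41091 that name 1 gene, 13489 (32.8%).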
